A study of Mus musculus with 3 samples.

Results

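The genes described here are the nuclear genes whose products build the oxidative phosphorylation complexes of mitochondria. They were taken by name, as every gene on the array whose symbol starts with Ndufa, Ndufb, Ndufc, Ndufs, Ndufv, Uqcr, Cox4i, Cox5, Cox6, Cox7, Cox8 or Atp5, together with Sdha, Sdhb, Sdhc and Sdhd. The rule found 132 probes of 95 genes among 55681 probes of 36977 genes and other transcripts. Of these 95 genes, 92 were bright enough to be tested, among 23549 tested in all. The remaining 3, Cox7b2, Cox8b and Cox8c, were not well above background in either channel on any array, so no value is given for them. The rule also took in 8 assembly factors of complex I, which carry the Ndufaf prefix, and 1 pseudogene, Atp5c1-ps.

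Mouse embryos of stage E8.75 (embryonic day) were compared on 3 two-colour arrays. Each array held a pair of RNAs, labelled Brpf1-deficient in the Cy5 (red) channel and wild-type in the Cy3 (green) channel, and the arrays are numbered as pairs 1, 2 and 3. No treatment was given. The labels do not state the allele, a strain, or how many embryos gave each RNA, so p-values speak only for these 3 pairs. They rest on a moderated variance, which combines the spread of a gene's pairs with the variance shared by all genes. The dyes had 1 orientation on all arrays, and dye and genotype therefore cannot be told apart. Results are given as log2(Cy5/Cy3), where a positive sign stands for a stronger signal in the channel labelled Brpf1-deficient.

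Oxidative phosphorylation makes most of the ATP of respiring cells. Complex I takes electrons from NADH and complex II takes them from succinate, complex III passes them to cytochrome c, and complex IV (cytochrome c oxidase) passes them to oxygen. Complexes I, III and IV pump protons as they do so, and complex V, the ATP synthase, uses the returning protons to make ATP. Apart from complex II, whose subunits are all nuclear, each complex combines nuclear subunits with a few encoded by mitochondrial DNA. Embryos of this stage are known to rely heavily on glycolysis, while the forming heart builds up mitochondria early.

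Brpf1, the scaffold of KAT6 and KAT7 histone acetyltransferase complexes and the gene that the labels name as deficient, was read first as a check of the labels. Its uncorrected signal was 12356.5, 6418 and 5168 in the channel labelled Brpf1-deficient, against 1772.5, 2125 and 1537 in the channel labelled wild-type. In pairs 1, 2 and 3 its normalized log2 ratio was 2.01, 1.43 and 1.06 (mean 1.499 ± 0.19, moderated SE, n = 3 pairs, limma adjusted p = 0.0404). Brpf1 therefore goes against its label, and the groups below are named by how their channels are labelled. Whether the probe lies inside or outside the altered part of the gene is not given in the sources used here.

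Promoter sequence was available from RefSeq (GRCm38.p6) for 77 of the 95 genes, as 250 bases before and 50 bases after the annotated start. Only the 250 bases before the start were searched, on both strands, for sequences long associated with this gene class. NRF-1 is a transcription factor known to act on many respiratory genes, and its palindrome-like motif, GCGCA and GCGC separated by any base, was present in the promoters of 13 of the 77 genes (16.9%), against 3.86% of 27025 promoters. The ETS-type motif CCGGAAG, bound by NRF-2 (GABP), was in 13 of 77 (16.9%), against 7.05% of all promoters. CCAAT was in 35 of 77 (45.5%), against 34.5%, and ACGTG, the core of the hypoxia response element, was in 16 of 77 (20.8%), against 16.6%. Promoters of Atp5h, Cox6a1 and Sdhd held both the NRF-1 and the ETS-type motif. No motif searched contains another, and a match describes letters, not a bound site.

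The NRF-1 matches are shown for 1 gene each of complexes I, II, IV and V and for 1 assembly factor. In Ndufs6 the motif reads on the opposite strand, so its reverse complement is printed. The matches are in capitals, with up to 20 flanking bases upstream of the start, 5′ to 3′ on the gene's strand. They lie at chr13:73328483-73328518 (minus strand) for Ndufs6, at chr4:24897950-24897999 (plus strand) for Ndufaf4, at chr13:74350241-74350270 (minus strand) for Sdha, at chr5:115349046-115349095 (minus strand) for Cox6a1 and at chr15:102671060-102671109 (minus strand) for Atp5g2.
Ndufs6: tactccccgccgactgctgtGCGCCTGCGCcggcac
Ndufaf4: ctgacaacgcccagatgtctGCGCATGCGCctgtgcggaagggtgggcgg
Sdha: cgacacccgcgcgactcggtGCGCAAGCGC
Cox6a1: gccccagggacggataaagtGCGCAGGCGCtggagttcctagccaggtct
Atp5g2: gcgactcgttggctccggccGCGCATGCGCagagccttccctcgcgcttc

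The promoter of Atp5b, the β subunit that holds the catalytic sites of ATP synthase, is shown because Atp5b was the only gene of the 92 to pass the adjusted threshold. The 250 bases before its start (chr10:128083057-128083306, plus strand, GRCm38.p6) held CCAAT, in capitals, 5 times over both strands.
Atp5b: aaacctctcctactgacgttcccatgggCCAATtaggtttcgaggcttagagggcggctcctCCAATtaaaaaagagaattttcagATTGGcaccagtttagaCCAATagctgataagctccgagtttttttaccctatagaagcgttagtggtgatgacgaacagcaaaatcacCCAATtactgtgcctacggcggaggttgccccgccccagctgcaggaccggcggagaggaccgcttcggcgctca

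The 13 tested genes with the NRF-1 motif had a median log2 ratio of -0.02, with values between -0.25 (Sdha) and 0.42 (Atp5g2). The 62 tested genes whose promoter lacked it had a median of -0.05. The 13 genes with the ETS-type motif had a median of -0.05 and the other 62 a median of -0.04.

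Most of the genes showed little difference between the channels. The median log2 ratio of the 92 genes was -0.05, against -0.02 over all 23549 genes, and 38 lay above 0 and 54 below. The central 2 quartiles ran between -0.12 and 0.05, and the extremes were Ndufa4l2 at -0.81 and Atp5b at 0.72. A 95% confidence interval that stays within 0.5 of 0 was found for 79 of the 92 genes (85.9%), against 70.4% of all genes. A total of 80 genes (87.0%) had a mean smaller in size than 0.25, against 78.9% of all genes.

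With limma and Benjamini-Hochberg adjustment over all genes tested, 1 of the 92 was called higher in the channel labelled Brpf1-deficient (1.29% of all genes were) and none was called lower (0.0934% of all genes were; 1.38% were called in either direction). At an unadjusted p under 0.05, 10 genes were higher (8.23% of all genes) and 3 were lower (9.12% of all genes). The 10 were Atp5b, Atp5g1, Atp5g2, Atp5g3, Cox4i1, Cox5a, Cox6a1, Cox7c, Cox8a and Uqcrh, which belong to complexes III, IV and V. The 3 were Cox6b2, Ndufa4l2 and Sdha. No gene of complex I or its assembly was in either group.

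**Figure D1:**
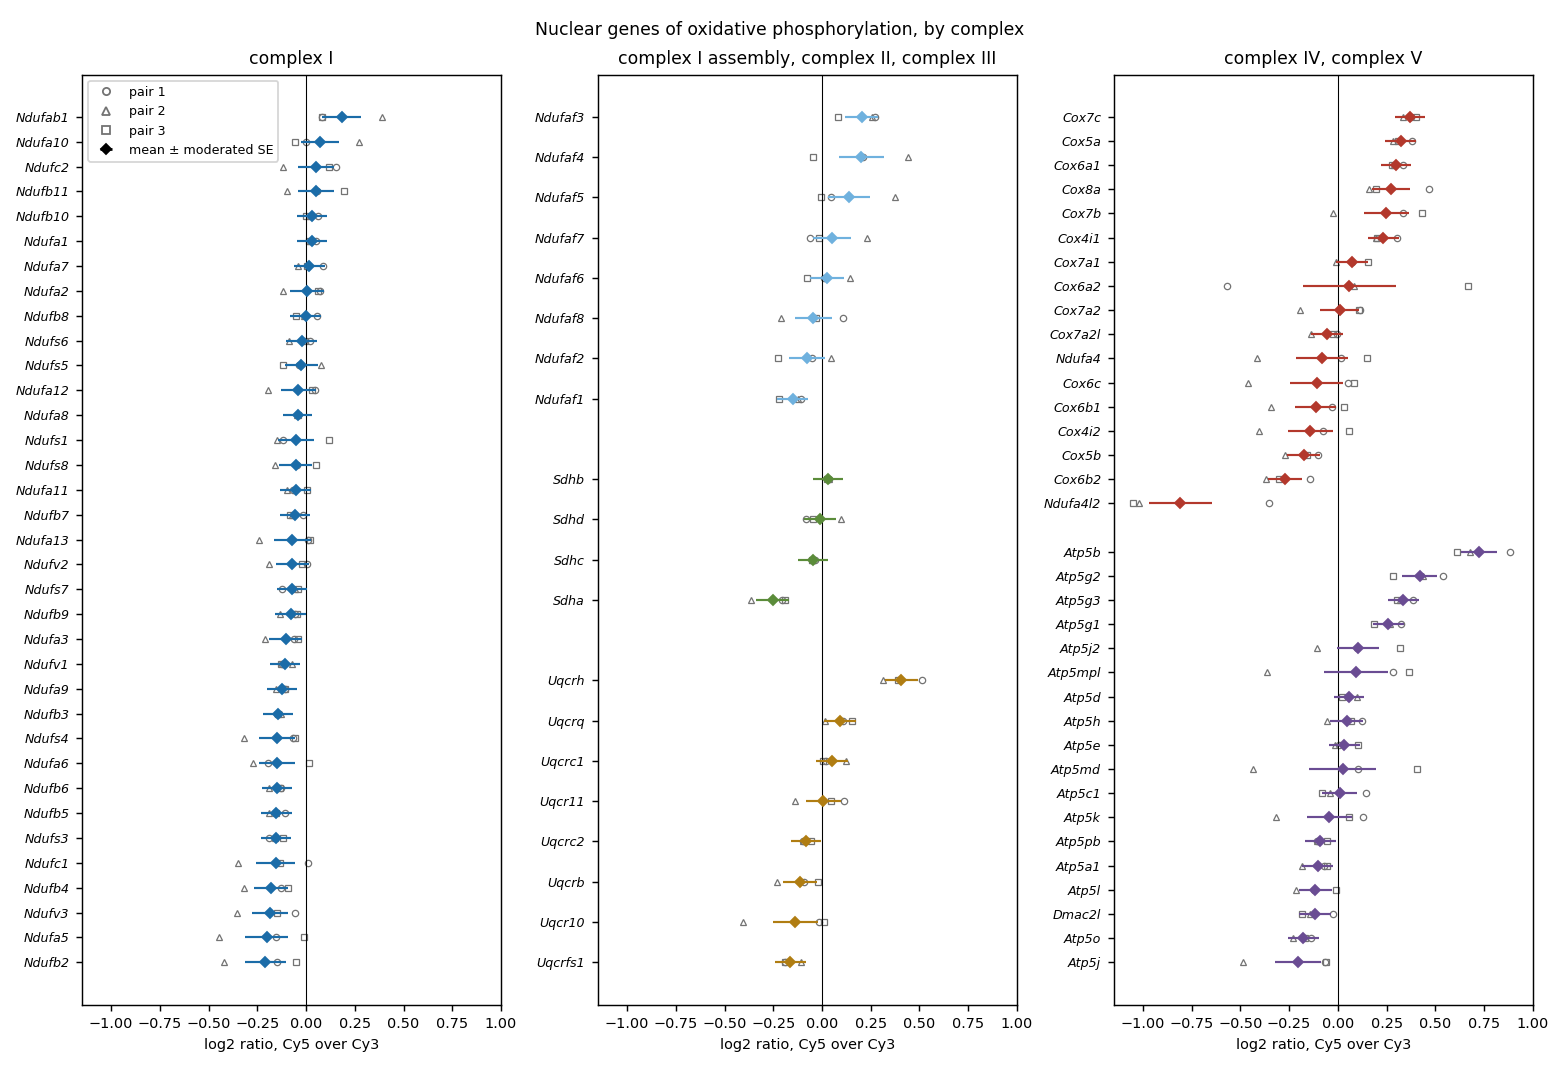
Mean log2 ratio of Cy5 over Cy3 (x axis) of the genes of each complex (y axis, sorted by mean), with the moderated SE over 3 pairs as bars and the single pairs as open circles, triangles and squares; Atp5c1-ps and 1 gene not reported here are left out. Complex I lies between -0.21 and 0.18, while complexes IV and V hold both the highest gene (Atp5b, 0.72) and the lowest (Ndufa4l2, -0.81).

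Complex I showed small ratios throughout. Its 36 tested subunits had a median of -0.07, ran between -0.21 and 0.18, and all 36 had an interval within 0.5 of 0. Of these, 28 lay below 0 and 8 above, and none had an unadjusted p under 0.05. The sign depended on the normalization. With a loess span of 0.02, which follows the intensity trend more closely, 24 lay below 0 and the median was -0.03, and with arrays only centred on their median 35 lay above 0. The 29 supernumerary subunits, which surround the catalytic core, had a median of -0.06.

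Ndufab1, the mitochondrial acyl carrier protein, was the highest subunit of complex I, at 0.08, 0.39 and 0.08 in pairs 1, 2 and 3 (mean 0.18 ± 0.10, SE). All its pairs lay above 0, and pair 2 stood above the others. Ndufa10 followed, at -0.00, 0.27 and -0.05 (mean 0.07 ± 0.10), again with its high value in pair 2. The lowest was Ndufb2, at -0.15, -0.42 and -0.05 (mean -0.21 ± 0.10), where pair 2 was the low one. Ndufa5, a subunit of the peripheral arm, was at -0.15, -0.45 and -0.01 (mean -0.20 ± 0.11), with the same order of pairs. The brightest subunits, Ndufa13 (GRIM-19) and Ndufa2, had means of -0.07 ± 0.09 and 0.00 ± 0.09. The smallest adjusted p among these genes was 0.363, that of Ndufb2.

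The 8 assembly factors of complex I, which help to build the complex and are not part of it, had a median of 0.04. Ndufaf3 was at 0.27, 0.26 and 0.08 (mean 0.20 ± 0.09, adjusted p = 0.313), with all pairs above 0. Ndufaf4, its partner in an early assembly step, was at 0.21, 0.44 and -0.04 (mean 0.20 ± 0.12), so that pair 3 lay on the other side of 0. At the low end, Ndufaf1 was at -0.11, -0.12 and -0.22 (mean -0.15 ± 0.08) and Ndufaf2 at -0.05, 0.05 and -0.23 (mean -0.08 ± 0.09). The pairs differed: the median over the 8 factors was 0.03 in pair 1, 0.19 in pair 2 and -0.04 in pair 3. A separate list held 47 genes known to assemble the complexes or to insert their metals and haem, of which 43 were tested. None passed the adjusted threshold (1.38% of all genes did) or an unadjusted p of 0.05 (17.3% of all genes did). Their median was -0.02, and the smallest p-values belonged to Coa4 (0.22), Taco1 (0.20) and Cox17 (-0.20), a copper chaperone.

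Complex II, succinate dehydrogenase, also works in the citric acid cycle. Sdha, its flavoprotein, was at -0.21, -0.36 and -0.19 in pairs 1, 2 and 3, lower in the channel labelled Brpf1-deficient in all pairs (mean -0.25 ± 0.08, unadjusted p = 0.029, adjusted p = 0.246). The iron-sulphur subunit Sdhb was at 0.04, 0.04 and 0.02 (mean 0.03 ± 0.08). The membrane anchors Sdhc and Sdhd had means of -0.05 ± 0.08 and -0.01 ± 0.08. Sdha was thus the only one of the 4 with every pair further than 0.15 from 0, and it did not pass the adjusted threshold. It was at -0.17 both with a loess span of 0.02 and with the processed signals. In neither setting was its unadjusted p under 0.05. Of 23 citric acid cycle and pyruvate entry genes, none passed the adjusted threshold. Their median was -0.06. At an unadjusted p under 0.05, 1 was higher (8.23% of all genes) and 2 were lower (9.12% of all genes). These were Mdh2 (0.23 ± 0.09) on the higher side, and Suclg2 (-0.29 ± 0.08) and Pdk1 (-0.39 ± 0.13) on the lower. Mdh2 was at -0.03 with a loess span of 0.02.

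Complex III had a median of -0.04 over 8 genes. Uqcrh, the hinge protein that contacts cytochrome c1, was at 0.51, 0.32 and 0.39 (mean 0.41 ± 0.08, unadjusted p = 0.0047, adjusted p = 0.137), and its pairs lay apart from those of the other 7 genes. It was at 0.15 with a loess span of 0.02, next to Uqcrc1 and Uqcrq (0.13 each), and at 0.07 with the processed signals. Uqcrq, a small subunit near the quinone sites, was at 0.11, 0.01 and 0.15 (mean 0.09 ± 0.08). The lowest were the Rieske iron-sulphur protein Uqcrfs1, at -0.19, -0.11 and -0.19 (mean -0.16 ± 0.08), and Uqcr10, at -0.02, -0.40 and 0.01 (mean -0.14 ± 0.11). The value of Uqcr10 came from pair 2, while that of Uqcrfs1 was alike in all pairs. Uqcr11, another small subunit and among the brightest, was at 0.11, -0.14 and 0.05 (mean 0.01 ± 0.09).

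Complex IV showed the widest range. Its 12 general subunits had a median of 0.12. Cox7c was highest, at 0.38, 0.34 and 0.40 (mean 0.37 ± 0.08, adjusted p = 0.138), and Cox5a, a subunit on the matrix side, was at 0.38, 0.28 and 0.31 (mean 0.32 ± 0.08, adjusted p = 0.170). Both were above 0 in all pairs with little spread between them. At the narrower span of 0.02 Cox7c was at 0.11 and Cox5a at 0.08 (0.02 and -0.14 with the scanner software's processed signals), and the median of the 12 general subunits was -0.09. With those signals that median was -0.12, so its sign depended on the normalization.

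Complex V had a median of 0.03 over 18 genes and held the gene that passed. Atp5b gave uncorrected signals of 284489, 230571 and 283192 in the channel labelled Brpf1-deficient, against 56279, 80312.5 and 78095 in the channel labelled wild-type. After normalization its log2 ratio was 0.88, 0.68 and 0.61 (mean 0.72 ± 0.09, adjusted p = 0.0414). Atp5b was higher in the channel labelled Brpf1-deficient in all 3 pairs. The call ended with a loess span of 0.02, at 0.22 ± 0.09 (adjusted p = 0.363), with the processed signals, at 0.34 (adjusted p = 0.293), and without any one of the pairs. The authors' deposited table gives a log2 ratio of 0.694 for the same probe once its direction is turned, with an adjusted p of 0.3002.

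The partner of Atp5b in the catalytic head, the α subunit Atp5a1, was at -0.07, -0.19 and -0.06 (mean -0.10 ± 0.08), so it lay below 0 in all pairs while Atp5b lay above. The other head and stalk subunits Atp5c1, Atp5d and Atp5e had means between 0.01 and 0.06. The 3 genes Atp5g1, Atp5g2 and Atp5g3 encode the same mature c subunit of the rotor ring with different import sequences. Atp5g2 was at 0.54, 0.44 and 0.28 (mean 0.42 ± 0.09, adjusted p = 0.142). Atp5g3 was at 0.38, 0.32 and 0.30 (mean 0.34 ± 0.08, adjusted p = 0.166), and Atp5g1 at 0.32, 0.27 and 0.19 (mean 0.26 ± 0.08, adjusted p = 0.228). All 9 of these values lay above 0. The span of 0.02 gave means of 0.12 for Atp5g1, 0.16 for Atp5g2 and -0.04 for Atp5g3, and with the processed signals all 3 lay below 0.

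The 4 subunits of the peripheral stalk, which holds the head still while the rotor turns, had a median of -0.13. Atp5j, the coupling factor F6, was at -0.07, -0.49 and -0.06 (mean -0.21 ± 0.12), with pair 2 apart. Atp5o, the oligomycin sensitivity protein, was at -0.14, -0.23 and -0.17 (mean -0.18 ± 0.08, adjusted p = 0.327), alike in all pairs. The small membrane subunits Atp5j2, Atp5k, Atp5l, Atp5md and Atp5mpl, several of which help ATP synthase to form dimers, had a median of 0.02. Their pair medians were 0.10, -0.32 and 0.32 in pairs 1, 2 and 3, and pair 2 was the lowest in all 5 genes.

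The ratio followed the brightness of the probe. Among all genes with a mean log2 intensity above 17, which numbered 544, the median log2 ratio was 0.75 and 280 were called higher, out of 304 called higher in all. Atp5b, with a mean log2 intensity of 17.06, was the only gene of the complexes in this range, and its 0.72 lay close to that median. In the range between 16.5 and 17, the median was 0.22 over 375 genes and 0.27 over the 14 genes of the complexes there. These 14 include every other gene with an unadjusted p under 0.05 on the higher side. Between 15 and 15.5, the median was -0.09 over 619 genes and -0.13 over 14 genes of the complexes, most of them of complex I. The genes of the complexes were bright as a group, with a median of 15.80 against 10.64 for all genes, so brightness bears on most of their values.

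After loess with span 0.02 the medians over all genes lay between -0.05 and 0.02 in every range of brightness. The median of the 92 genes was then -0.03, 33 lay above 0 and 59 below, and 88 had an interval within 0.5 of 0. None of them, and none of all 23549 genes, passed the adjusted threshold in limma with that span. At an unadjusted p under 0.05, 1 gene of the complexes was higher (Ndufaf3, 6.84% of all genes) and 4 were lower (Cox4i1, Cox6b2, Ndufa13 and Ndufa4l2, 8.06% of all genes). The scanner software's processed signals gave 1 gene higher (Atp5b, 6.35% of all genes) and 7 lower (8.31% of all genes) at that limit, and none past the adjusted threshold. With arrays only centred on their median, 7 genes were called higher (2.66% of all genes). Cox4i1 lay on opposite sides of 0 under the 2 spans, at 0.23 and at -0.22, and both had an unadjusted p under 0.05. How much of the ratio of the bright genes belongs to the dyes and how much to the RNA cannot be told apart, since no array had its dyes swapped.

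**Figure D2:**
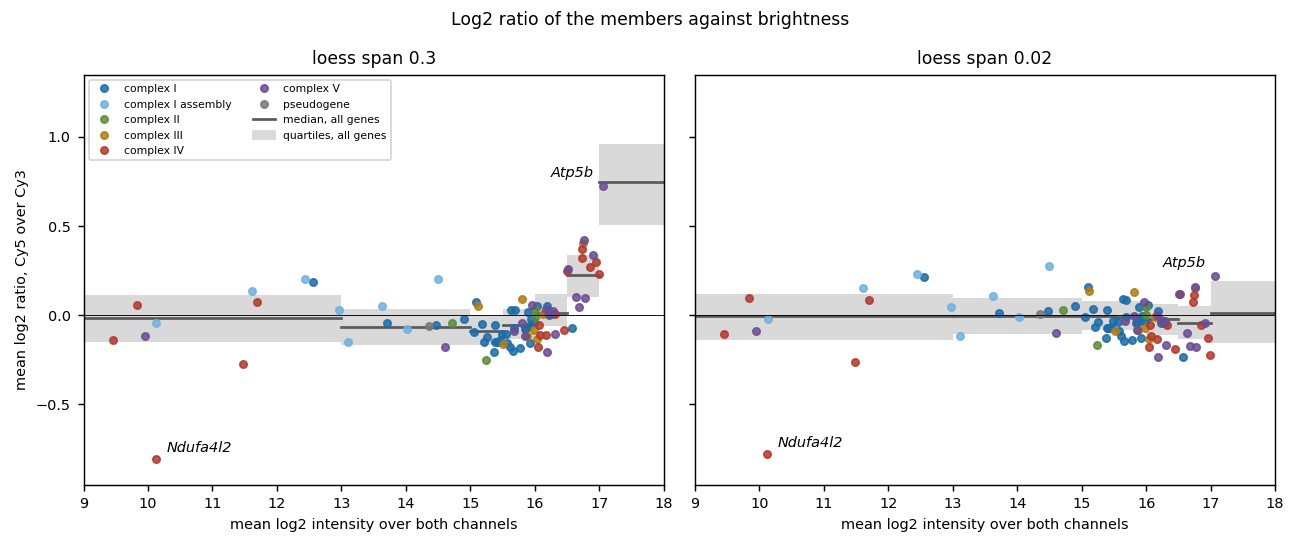
Mean log2 ratio of Cy5 over Cy3 (y axis) against the mean log2 intensity over both channels (x axis) for the 92 genes, coloured by complex, with loess spans of 0.3 (left) and 0.02 (right). Grey lines and bands give the median and quartiles of all genes tested in each range of intensity: with span 0.3 the line climbs to 0.75 above 17 and Atp5b lies beside it, while Ndufa4l2 lies apart from its range in both panels.

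Some subunits of complex IV have tissue-restricted forms next to general ones, and these were read pair by pair. Ndufa4l2, a hypoxia-inducible relative of the complex IV subunit Ndufa4, had uncorrected signals of 1314, 1227.5 and 679 in the channel labelled Brpf1-deficient, against 1019, 2140.5 and 852.5 in the channel labelled wild-type. Over all spots the red channel was the brighter one, with a median signal of 220 to 243 against 134 to 144.5 in the green. After normalization the log2 ratio of Ndufa4l2 was -0.35, -1.02 and -1.05, lower in the channel labelled Brpf1-deficient in all 3 pairs (mean -0.81 ± 0.16). Its unadjusted p was 0.004 and its adjusted p 0.129, so it did not pass. The mean was -0.78 with a loess span of 0.02 and -0.84 with the processed signals, and between -1.04 and -0.69 when each pair was left out in turn. In the authors' deposited table it is -0.877 once turned, with an adjusted p of 0.399. In whole embryos a lower ratio cannot be told apart from fewer cells that express the gene. Ndufa4 itself was at 0.02, -0.41 and 0.15 (mean -0.08 ± 0.13), on both sides of 0.

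Genes known to respond to low oxygen did not share 1 direction in these pairs. Of a list of 12 such genes, all tested, 1 was called higher (1.29% of all genes were) and none lower (0.0934% were). The called gene was Ldha, at 1.25 ± 0.10. At an unadjusted p under 0.05, 3 were higher (8.23% of all genes) and 5 lower (9.12% of all genes). The median of the list was -0.18, with pair medians of -0.15, -0.45 and 0.16, and it was -0.33 with a loess span of 0.02. Ldha, Eno1 (0.76) and Pgk1 (0.45), which had the smallest p-values, all lay above 17 in brightness, and with a loess span of 0.02 they were at 0.52, -0.09 and -0.36. The summed normalized signal of the list was 889804 to 953657 in the channel labelled Brpf1-deficient and 533289 to 757117 in the channel labelled wild-type. Bright genes weigh most in such a sum, which is on a linear scale. Of the 12 genes, 5 lay above 0 and 7 below. The part of oxygen-responsive genes in the value of Ndufa4l2 was not tested.

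Cox6b2, the testis form of subunit 6b, was at -0.15, -0.37 and -0.30 (mean -0.27 ± 0.09, adjusted p = 0.233), lower in all pairs. Its general partner Cox6b1 was at -0.03, -0.34 and 0.03 (mean -0.11 ± 0.11). Cox4i2, the oxygen-responsive form of subunit 4, was at -0.08, -0.40 and 0.06 (mean -0.14 ± 0.11), and the general Cox4i1 at 0.30, 0.19 and 0.20 (mean 0.23 ± 0.08). Their values do not overlap, but Cox4i1 belongs to the bright range in which most genes lay above 0 and Cox4i2 does not, and Cox4i1 was at -0.22 with a loess span of 0.02.

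The heart and muscle form Cox6a2 had the largest SE of the 92 genes, at -0.57, 0.08 and 0.67 (mean 0.06 ± 0.24), with 1 pair well below 0 and 1 well above. Its general partner Cox6a1 was at 0.33, 0.29 and 0.28 (mean 0.30 ± 0.08), but at -0.13 with a loess span of 0.02 and at -0.16 with the processed signals. Cox7a1, another heart and muscle form, was at 0.07, -0.01 and 0.15 (mean 0.07 ± 0.08), the general Cox7a2 at 0.11, -0.20 and 0.11 (mean 0.01 ± 0.10), and Cox7a2l, a factor that joins complexes into supercomplexes, at -0.00, -0.14 and -0.03 (mean -0.06 ± 0.08). Of the general forms whose restricted partner was not measured, Cox7b was at 0.34, -0.02 and 0.43 (mean 0.25 ± 0.12) and Cox8a at 0.47, 0.16 and 0.19 (mean 0.27 ± 0.10). The sign of Cox8a turned with a loess span of 0.02 (-0.06) and with the processed signals (-0.04), while Cox7b was at 0.12 and 0.02.

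**Figure D3:**
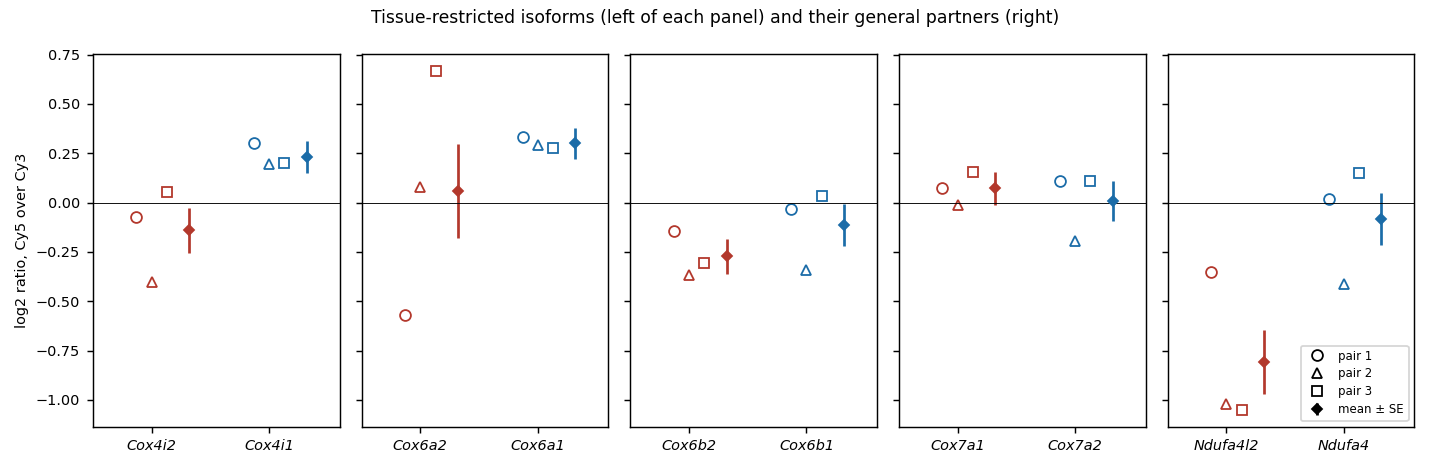
Log2 ratio of Cy5 over Cy3 (y axis) in each pair (circle, triangle and square for pairs 1, 2 and 3) and its mean with SE (diamond) for 5 restricted forms of complex IV subunits (left in each panel) and their general partners (right). Ndufa4l2 lies below 0 in every pair and apart from Ndufa4 in each, and Cox6a2 spans -0.57 to 0.67.

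Markers of heart muscle stand beside the heart forms. All 18 cardiomyocyte genes listed were tested. In the channel labelled Brpf1-deficient 3 were called lower (0.0934% of all genes were) and none higher (1.29% of all genes were). The 3 were Myh6 (-0.70 ± 0.08), Ryr2 (-0.64 ± 0.09) and Ttn (-0.62 ± 0.08), with limma adjusted p between 0.0313 and 0.0485. Of the 18 genes, 14 lay below 0 and 4 above, the highest at 0.97. The list's median was -0.27, and its pair medians were -0.45, -0.38 and 0.00. Its summed normalized signal was 318437 to 473094 in the channel labelled Brpf1-deficient and 352993 to 552911 in the channel labelled wild-type. No cardiomyocyte gene passed the adjusted threshold with a loess span of 0.02, although Myh6 was still at -0.62. The heart forms Cox6a2 and Cox7a1 had means above 0, and the part of heart cells in their values was not tested.

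Cytochrome c carries electrons between complexes III and IV, and its 2 genes had ratios on opposite sides of 0. Cyct, the testis form, was at -0.87, -1.65 and -1.25 in pairs 1, 2 and 3 and fell in the channel labelled Brpf1-deficient (mean -1.26 ± 0.16, adjusted p = 0.0414). Cycs, the general form, was at 0.44, 0.31 and 0.45 (mean 0.40 ± 0.08, adjusted p = 0.133) and is bright, with a mean log2 intensity of 16.60 against 8.60 for Cyct, by different probes. Under a loess span of 0.02 Cyct was at -1.26 (adjusted p = 0.273) and Cycs at 0.22. Of 16 electron carrier genes only Cyct passed, on the lower side (0.0934% of all genes were called lower). The median of the list was -0.02. Of 21 regulators of mitochondrial biogenesis none passed. At an unadjusted p under 0.05, 1 was higher (8.23% of all genes) and 3 were lower (9.12% of all genes). Yy1 (-0.22), Twnk (-0.22), the mitochondrial DNA helicase, and Ppara (0.22) had the smallest p-values. The subunits encoded by mitochondrial DNA were not analysed here.

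The 3 pairs were not alike. Across all genes tested, Pearson's r was 0.409 between pairs 1 and 2, 0.335 between pairs 1 and 3 and 0.152 between pairs 2 and 3, over genes that are not independent of each other. The median of the 92 genes was -0.00 in pair 1, -0.11 in pair 2 and -0.01 in pair 3. Pair 2 was the lowest of the 3 in 58 of the 92 genes (63.0%), against 44.2% of all genes. With a loess span of 0.02 it was the lowest in 43 (46.7%), against 41.2% of all genes. The same sign in all pairs was found for 51 genes (55.4%), against 43.4% of all genes.

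Single genes with a low value in pair 2 were about as frequent here as elsewhere. In 14 of the 92 genes (15.2%) pair 2 lay more than 0.25 below both other pairs, against 14.2% of all genes. They were Atp5mpl, Atp5md, Cox6c, Ndufa4, Atp5j, Uqcr10, Atp5k, Cox7b, Cox4i2, Cox6b1, Cox7a2, Ndufa5, Ndufb2 and Ndufs4. The clearest cases, named after their values were seen, were Atp5mpl, at 0.28, -0.37 and 0.37 (mean 0.09 ± 0.16), Atp5md, at 0.10, -0.44 and 0.41 (mean 0.02 ± 0.17), and Cox6c, at 0.05, -0.46 and 0.08 (mean -0.11 ± 0.13). Each of them lay above 0 in pairs 1 and 3 and below 0 in pair 2. With a loess span of 0.02, 8 of the genes still met this limit, or 8.70% of the 92 against 12.5% of all genes. In 3 genes (3.26%), Ndufaf5, Ndufab1 and Ndufa10, pair 2 lay more than 0.25 above both other pairs, against 11.98% of all genes. The span of 0.02 gave 5 such genes (5.43%), against 12.9% of all genes.

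**Figure D4:**
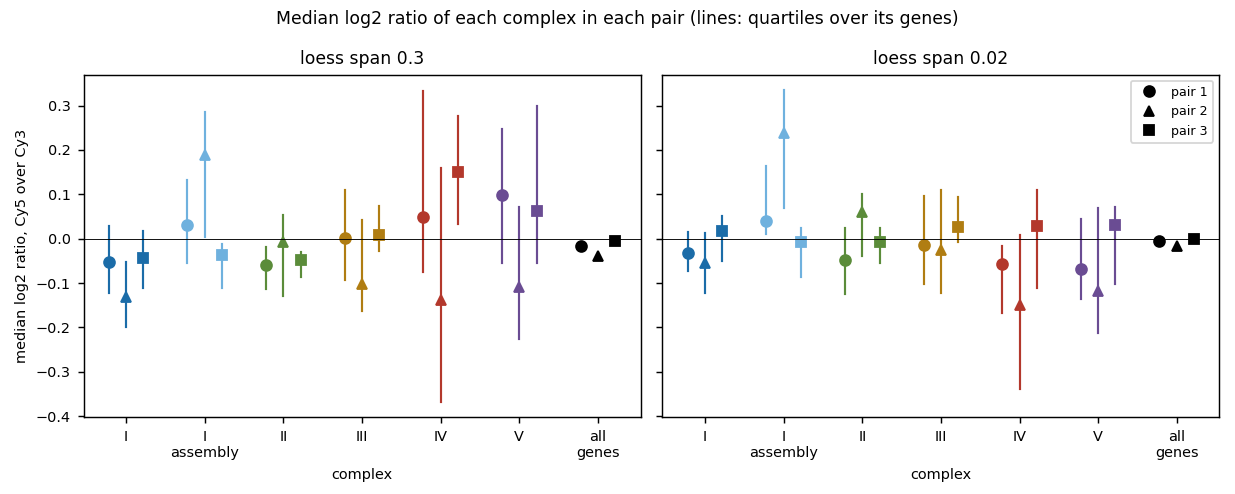
Median log2 ratio of Cy5 over Cy3 (y axis) over the genes of each complex (x axis) in pairs 1, 2 and 3 (circle, triangle, square), with lines for the quartiles over its genes and black symbols for all genes tested, at loess spans of 0.3 (left) and 0.02 (right). In complexes I, III, IV and V pair 2 is the lowest in both panels, and in the assembly factors of complex I it is the highest (0.19 with span 0.3).

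Lists of primitive erythroid and of decidual genes had pair medians on both sides of 0. Of 11 tested primitive erythroid genes out of 12, 1 was called higher (Hbb-bh1, at 1.28 ± 0.16), against 1.29% of all genes. The median of this list was 0.03, with 7 genes above 0 and 4 below, and its pair medians were -0.50, 0.68 and 0.19. Of 18 visceral endoderm and yolk sac genes, 17 lay above 0, against 10742 of all 23549 genes. In this list 1 was called higher (Apoc2, at 1.16 ± 0.12), against 1.29% of all genes. Its median was 0.38, and the pair medians were 0.25, 0.43 and 0.51, all above 0. At a loess span of 0.02 neither call held, with Hbb-bh1 at 0.23 (adjusted p = 0.779) and Apoc2 at 0.79 (adjusted p = 0.273). Of 12 genes of the decidua and uterus none passed, and the pair medians were -0.11, -0.55 and 0.42. For the decidual list the summed normalized signal was 41960 to 69571 in the channel labelled Brpf1-deficient and 53033 to 86218 in the channel labelled wild-type. All tested genes of these lists were well above background on at least 2 arrays in 1 channel or both. Of the 12 erythroid genes listed, 1 was not found on the array by its listed name. The part of these lists in the pair 2 values of the respiratory genes was not tested.

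Genes with several probes allow a check within an array. Of the 92 genes, 28 had at least 2 probes above background, and in 10 of them the probes lay on both sides of 0. The median range between the probes of a gene was 0.105. The median moderated SE over the pairs was 0.0852, but a range and an SE are different measures and are not compared here. The widest range was that of Cox7c, whose 3 probes ran between -0.06 and 0.37, with the value above given by the brightest. Ndufv3 ran between -0.19 and 0.13, Ndufa3 between -0.10 and 0.20, and Ndufb5 between -0.15 and 0.14. Ndufa5 (-0.20 to 0.01), Ndufaf5 (-0.10 to 0.14), Uqcr10 (-0.14 to 0.06) and Atp5c1 (-0.16 to 0.01) were next. Sdhb (-0.07 to 0.03) and Uqcr11 (-0.06 to 0.01) had narrow ranges across 0. In contrast, all 6 probes of Atp5l lay below 0, between -0.22 and -0.05, and both probes of Uqcrh (0.18 and 0.41) and of Atp5g2 (0.17 and 0.42) lay above 0.

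**Figure D5:**
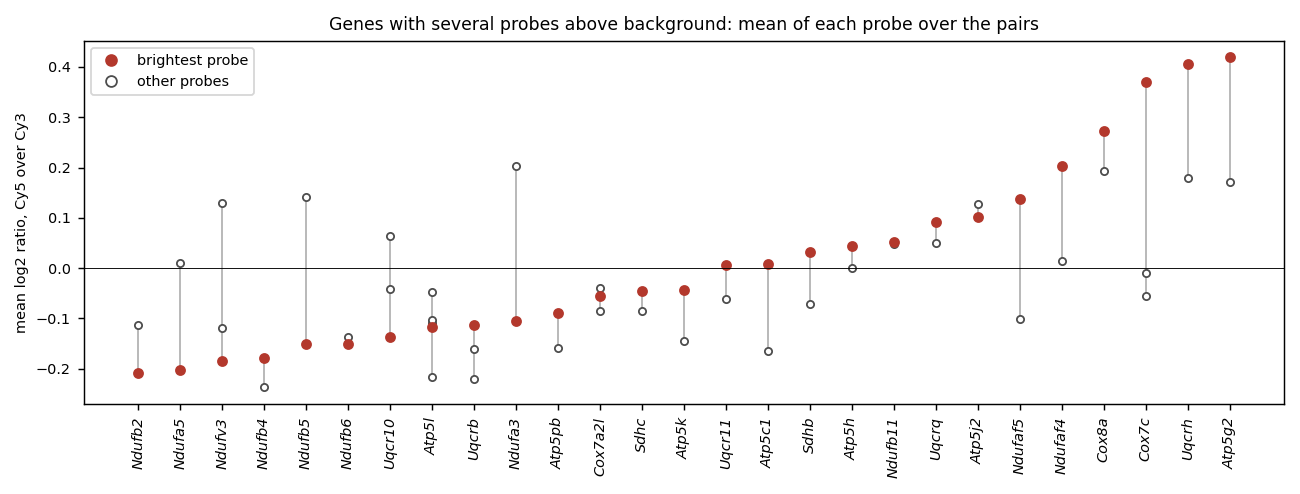
Mean log2 ratio of Cy5 over Cy3 over the 3 pairs (y axis) of every probe above background for the genes with at least 2 such probes, except 1 not reported here (x axis, sorted by the brightest probe, which is filled). Open circles give the other probes; Cox7c has the widest range, -0.06 to 0.37.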

How the data were processed

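RNA of 3 sample pairs was hybridized to 3 two-colour arrays. Per the labels, 350 ng of total RNA per sample was amplified in 1 round and then coupled to dyes. The spot intensity values are median signals on a linear scale, read with Feature Extraction 10.7.3.1, per the file headers, which also name build mm9; slide and scan time are the same for every array and give no batch to test. The processed intensity values were background-subtracted and dye-normalized by that software, per the file headers. A table deposited by the authors gives, for 40000 probes, log2 ratios, p-values and scores (log odds and moderated t). Limma is named, with no version, in the submitters' processing notes. The table's direction is not stated. Across 39915 probes it correlated at -0.802 with Cy5 over Cy3, so its log2 ratios were turned. It lists 60 of the 92 members' probes, with a smallest adjusted p of 0.3002.

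Median signals were corrected with normexp (offset 50) and normalized within arrays by loess (span 0.3). Control and outlier spots had weight 0, outlier spots were dropped and spots of a probe were averaged. Probes were kept where at least 0.5 of their spots were well above background on 2 or more arrays in 1 channel (31603 of 55681, 129 of the 132 of interest). The brightest probe stood for its gene. Means over pairs were tested against 0 with limma 3.58.1 in R 4.3.3 (lmFit and eBayes, two-sided), adjusted by Benjamini-Hochberg over 23549 genes, with a threshold of 0.05. Errors are moderated SE. Levels are not compared between probes, and the number of arrays limits the precision. Probes were named through RefSeq accessions (GRCm38.p6), which gave 124 of the 132. The authors' table named 7 more, and 1 (Atp5s there, Dmac2l in RefSeq) by its older name. Data were also simulated with independent noise and no trend with brightness. There, 15 of 50 genes changed by 0.5 (log2) and 50 of 50 changed by 1 were recovered among 23547 genes, with 12 false calls.

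Members and gene lists were chosen with earlier results of these data known. Genes were named by a rule: per complex the 2 highest, 2 lowest and 2 brightest, every gene past the threshold, all restricted isoforms and their partners, genes with probes on both sides of 0, and up to 3 genes of each further list by smallest p with Cycs and Cyct. The values of 1 gene of complex I are not reported here. The further lists were assembly factors, mitochondrially encoded subunits, biogenesis regulators, citric acid cycle enzymes, electron carriers, hypoxia genes and markers of cardiomyocytes, primitive erythroid cells, visceral endoderm and yolk sac, and decidua and uterus.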

Additional observations from a re-analysis of the deposited data

How the results depend on the processing

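The median log2 ratio of the 92 genes, -0.05, lay between -0.09 and -0.03 with a loess span of 0.02, processed signals, no background correction, no filter on dim probes, every probe tested, the mean over a gene's probes and the brightest genes left out. It lay between -0.07 and -0.00 when each pair was left out, and moved to 0.23 when arrays were only centred on their median, since that setting removes no trend with brightness. Of the 92 genes, 38 lay above 0 with span 0.3, 33 with span 0.02, 22 with processed signals and 79 with median centring.

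The count of genes past the limma threshold, 1, was 0 with span 0.02, processed signals, every probe tested, the mean over probes, the brightest genes left out (Atp5b is then not tested) and any pair left out. At an unadjusted p under 0.05, span 0.02 gave 1 gene higher and 4 lower (5.43% of them, against 14.9% of all genes) and processed signals 1 and 7 (8.70% against 14.7%). Every probe tested gave 10 and 4 probes (10.9% against 16.2%), the mean over probes 9 and 3 (13.04% against 16.3%) and the brightest genes left out 9 and 3 (13.2% against 15.5%). Without pair 1 the counts were 4 and 1 (5.43% against 9.11%), without pair 2 12 and 1 (14.1% against 16.3%), and without pair 3 7 and 1 (8.70% against 14.5%). The count was 7 with median centring (Atp5b, Atp5g2, Atp5g3, Cox5a, Cox6a1, Cox7c and Uqcrh). Over all genes, 326 calls became 0 with span 0.02, processed signals, any pair left out or the brightest genes left out, 651 with median centring and 201 with the mean over probes. Atp5b, at 0.72, was at 0.22 with span 0.02 (adjusted p = 0.363), at 0.34 with processed signals (0.293) and at 0.694 in the authors' deposited table (0.3002). It was unmoved at 0.72 with every probe tested (0.0602) and with the mean over probes (0.0532). Leaving out each pair gave 0.64 to 0.78 (adjusted p between 0.0873 and 0.283), with 1 residual degree of freedom. Ndufa4l2 stayed below 0 and short of the threshold under all alternatives, between -1.04 and -0.69.

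Of 42 other named genes, 9 lay on the other side of 0 with span 0.02, 16 with median centring, 14 with processed signals, 4 with the mean over probes and 4 to 5 with a pair left out. The causes were not tested. The test of the array ratios against 0 is itself a paired analysis, because each ratio is the difference within a pair. No further block on the pair number can therefore be fitted. The simulation recovered 30% of changes of 0.5, so smaller differences were mostly out of its reach. It held no trend with brightness, unlike these arrays, so its rates may not carry over to them.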
